A study of Mus musculus with 6 samples.

Results

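The regions described here were OCT4 regions of mouse embryonic stem cells (ESCs) that were listed in Esrrb-GFP high and in Esrrb-GFP negative cells, absent from Esrrb-GFP medium cells, and never listed for NANOG. They were chosen from the peak lists alone, by exact match of intervals across the 3 OCT4 and 3 NANOG lists, and 1009 of the 23767 distinct intervals in the 6 lists met this rule. They are called high/negative regions below. The listing in each population is therefore what selected them and is no finding about them.

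OCT4 and NANOG were mapped by ChIP-Seq in 3 populations of E-GFPd1 cells sorted for ESRRB reporter level. E-GFPd1 is a single reporter line, derived from E14Tg2a ESCs, in which a destabilized GFP is made from the *Esrrb* locus (Esrrb-2a-GFPd-IBIH). Esrrb-GFP high cells were the top 10% of the GFP distribution and Esrrb-GFP medium cells were the 15% lying directly above the negative gate. The labels of the negative fraction name it both Esrrb-low and Esrrb-Negative, and it is called negative here. Cells were fixed before they were sorted, and material from 3 ChIPs was pooled for each library, with an in-house rabbit antibody for NANOG and a goat antibody for OCT4. There was 1 library for each factor and population, so no difference between populations has a replicate check. The lists carry no signal and no expression, so the sequencing depth and the cell identity of the fractions could not be examined.

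OCT4 is a POU-domain transcription factor that recognizes an octamer, ATGCAAAT, and often binds with SOX2 to a composite Oct-Sox element. NANOG is a homeodomain factor and ESRRB an orphan nuclear receptor that recognizes TCAAGGTCA, and in naive ESCs both share many enhancers with OCT4 and SOX2. *Esrrb* is expressed unevenly among ESCs, and its loss accompanies the approach to differentiation.

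The sequences below show the strongest OCT4-type elements found inside high/negative regions, a sequence feature that was more frequent in them than in OCT4 regions listed in high cells alone. All sequences are from mm9 (NCBIM37), plus strand, 5′ to 3′, and each is the whole listed interval. In the first 5, capitals mark the Oct-Sox match, which was exact in the first and had 1 mismatch in the others.
chr14:106201752-106201811: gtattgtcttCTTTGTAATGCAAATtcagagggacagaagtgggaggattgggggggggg
chr3:27495792-27495911: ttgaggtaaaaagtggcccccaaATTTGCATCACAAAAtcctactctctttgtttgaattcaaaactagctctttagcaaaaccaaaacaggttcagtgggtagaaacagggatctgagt
chr5:45769872-45769991: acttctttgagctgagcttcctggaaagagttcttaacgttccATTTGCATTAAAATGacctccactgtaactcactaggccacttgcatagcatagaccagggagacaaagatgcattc
chr6:103730412-103730531: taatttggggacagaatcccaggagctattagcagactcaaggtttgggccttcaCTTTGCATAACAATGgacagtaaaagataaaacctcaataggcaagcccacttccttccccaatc
chr9:41761952-41762071: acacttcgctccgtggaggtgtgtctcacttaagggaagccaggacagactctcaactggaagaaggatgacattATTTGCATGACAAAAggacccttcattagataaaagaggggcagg

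The exact element lay on the plus strand and the other 4 on the minus strand. It was in an intergenic region 89355 bp downstream of *Spry2*, which encodes a feedback inhibitor of receptor tyrosine kinase signaling, and its nearest OCT4 medium region was 20 bp away. The chromosome 3 region was in an intron of *Fndc3b*, 106600 bp from the closest OCT4 medium region. Intergenic positions were also found for the chromosome 5 region, 55280 bp downstream of *Qdpr*, which encodes dihydropteridine reductase, and for the chromosome 6 region, 30741 bp downstream of *Chl1*, which encodes a neural cell adhesion molecule. The chromosome 9 region was intergenic and 10732 bp downstream of *Sorl1*, a sorting receptor gene. Apart from the *Fndc3b* region, these regions were intergenic and downstream of the gene named. For the chromosome 14 region another annotated transcription start site lay closer than *Spry2*, 14343 bp from the region's centre.

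The next 3 sequences are the widest regions with an exact octamer inside, which is in capitals.
chr12:80909452-80909751: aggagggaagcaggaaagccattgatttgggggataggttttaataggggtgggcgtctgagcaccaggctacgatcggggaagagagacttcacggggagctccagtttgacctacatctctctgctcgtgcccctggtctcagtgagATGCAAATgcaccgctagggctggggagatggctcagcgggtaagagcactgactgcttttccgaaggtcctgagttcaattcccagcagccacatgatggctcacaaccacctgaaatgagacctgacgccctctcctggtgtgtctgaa
chr11:109574832-109575091: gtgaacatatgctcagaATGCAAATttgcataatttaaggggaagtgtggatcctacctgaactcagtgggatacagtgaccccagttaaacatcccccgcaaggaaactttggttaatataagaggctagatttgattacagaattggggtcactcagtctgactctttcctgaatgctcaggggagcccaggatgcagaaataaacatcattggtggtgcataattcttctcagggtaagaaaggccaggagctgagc
chr10:93294012-93294231: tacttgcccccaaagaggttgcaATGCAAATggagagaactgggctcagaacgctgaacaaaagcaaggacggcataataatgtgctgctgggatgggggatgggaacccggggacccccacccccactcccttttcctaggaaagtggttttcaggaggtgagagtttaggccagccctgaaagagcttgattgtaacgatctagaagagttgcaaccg

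The chromosome 12 region was intergenic and 5195 bp downstream of *Rad51l1*, and the chromosome 11 region was in an intron of *Fam20a*. In the latter the octamer lay more than 100 bp from the centre, so it was not counted in the scans of central windows below. The chromosome 10 region ended 69 bp upstream of *Usp44*, which encodes a deubiquitinase, and the region's centre was 178 bp from a transcription start site (TSS).

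The last 3 sequences, at *Meis1*, *Tet2* and *Sox3*, held neither element and represent the larger share of high/negative regions.
chr11:18846172-18846271: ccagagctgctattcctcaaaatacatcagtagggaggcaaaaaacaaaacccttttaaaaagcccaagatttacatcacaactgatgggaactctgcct
chr3:133137592-133137631: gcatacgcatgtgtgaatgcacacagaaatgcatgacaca
chrX:58140992-58141051: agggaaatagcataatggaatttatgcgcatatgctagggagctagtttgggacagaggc

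The first of these was in an intron of *Meis1*, a TALE homeobox gene, and the next in an intron of *Tet2*. The *Sox3* region was intergenic and 3494 bp downstream of that gene. The central 31 bases of all 11 printed regions occurred once in the genome. This does not cover the rest of each interval, and repeats were not annotated.

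The first question was how common this pattern was among OCT4 regions. Of the 12449 OCT4 regions in Esrrb-GFP high cells, 2657 (21.3%) were absent from medium, and of the 10369 in negative cells, 2290 (22.1%) were absent from medium. Among the 5175 OCT4 regions that were listed in both high and negative cells and never for NANOG, the 1009 high/negative regions made up 19.5%. The 2 background shares were taken over all regions of 1 list, also those with NANOG or listed in 1 population alone, so they are not a like comparison. Over all OCT4 regions listed in both high and negative cells, 1119 of 6837 were absent from medium. The rule chose the high/negative regions by this absence, so their share is a description. Where NANOG was listed in at least 1 population, 110 of 1662 OCT4 regions in high and negative cells (6.62%) were absent from medium, with a median width of 180 bp.

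The other NANOG-free OCT4 regions fell into 6 patterns, which together with the high/negative regions made 14092 regions. Constitutive regions, listed in all 3 populations, numbered 4166. There were 2484 regions in high and medium cells, 2205 in medium and negative cells, 2029 in medium cells alone, 1141 in negative cells alone and 1058 in high cells alone. The high/negative regions were thus the smallest of the 7 classes, though close in number to the high-only and negative-only regions. Constitutive, high-only and negative-only regions differ from the high/negative regions in the listing of 1 population and were used for comparison. The authors dropped a region from the list of a population once its signal fell below 50% of the highest, and how near the high/negative regions lay to that threshold could not be given because the lists hold no signal. With each list limited to regions not narrower than its median, the number of high/negative regions was 289.

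**Figure D1:**
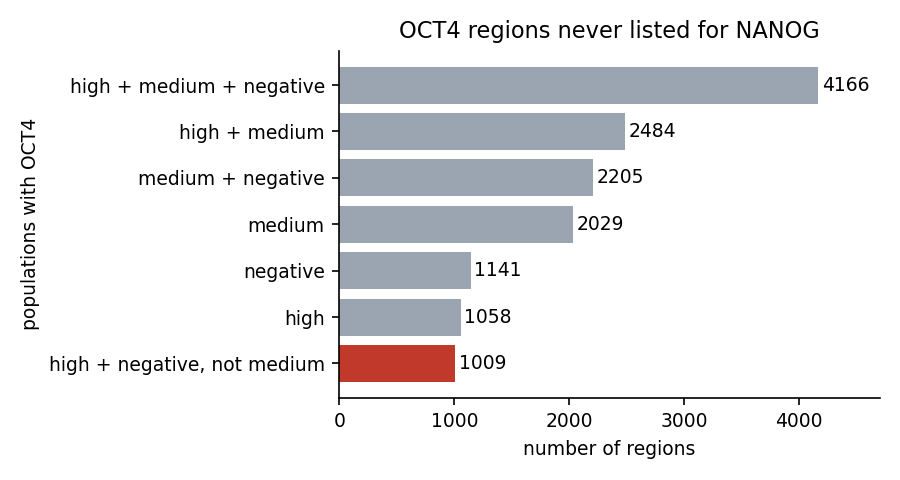
Number of OCT4 regions never listed for NANOG (horizontal axis) in each combination of Esrrb-GFP populations (vertical axis). The red bar marks the 1009 regions in high and negative but not medium cells, the smallest of the 7 classes, beside 4166 regions in all 3 populations.

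The high/negative regions were narrow. Their median width was 60 bp (interquartile range 40 to 100 bp) and the widest had 500 bp. At the smallest width in the lists, 40 bp, there were 307 of them (30.4%), and 35 (3.47%) were wider than 200 bp. Constitutive regions had a median of 100 bp (60 to 160 bp), with 14.9% at 40 bp and 12.6% over 200 bp. High-only and negative-only regions had the same median and quartiles as the high/negative regions, and 32.0% and 37.2% of them were at 40 bp. Width is that of peaks merged over all datasets.

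Among OCT4 regions listed in high and negative cells and never for NANOG, the share absent from medium fell with width. It was 33.1% of 928 regions of 40 bp and 22.1% of 1873 regions of 60 to 80 bp. It was 15.2% of 1218 regions of 100 to 140 bp and 9.0% of 1156 wider regions. These 4 width classes were chosen after the data had been seen, and the widths come from the same peak calls that chose the regions.

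The next question was whether the high/negative regions carry OCT4-type sequence elements, which the rule did not use. Elements were searched on both strands within 100 bp of each region's centre, with an exact octamer and up to 2 mismatches for Oct-Sox. The octamer is part of the Oct-Sox element, so the matches overlap. An octamer was found in 124 of 1009 high/negative regions (12.3%, 95% Wilson interval 10.4 to 14.5%). Windows 10 kb downstream of the same regions held it in 15 cases (1.49%), and the reversed octamer was found in 1 region. The reversed octamer holds a CpG dinucleotide that the octamer lacks, so it is not a matched background. An Oct-Sox match was found in 139 high/negative regions (13.8%, 11.8 to 16%), against 4 (0.396%) downstream. Both elements were thus far above their level in neighboring sequence, although 782 high/negative regions (77.5%) held neither. Over all 23767 regions of the 6 lists, 7.87% held an octamer and 9.50% an Oct-Sox match.

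In octamer content of the central window the high/negative regions lay close to constitutive regions and above high-only regions. Constitutive regions held an octamer in 12.4% of cases, with an odds ratio (OR) of high/negative to constitutive regions of 0.993 (95% interval 0.806 to 1.22). High-only regions held it in 7.94% (OR 1.62, 1.21 to 2.17) and negative-only regions in 10.7% (OR 1.17, 0.897 to 1.53). With 1 mismatch allowed, the interval against negative-only regions excluded 1 (OR 1.27, 1.07 to 1.51). Inside the listed interval itself an octamer was less frequent in high/negative regions, 8.13% (6.60 to 9.98%), than in constitutive regions, 10.5% (9.62 to 11.5%). The constitutive regions were also wider. High-only and negative-only regions held it inside in 4.63% and 7.27%. These intervals, like all others given for regions, cover counting error over regions of single libraries, and variation among cultures is not in them.

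For Oct-Sox the high/negative regions were intermediate. Constitutive regions held a match in 16.9% of cases (OR 0.784, 0.644 to 0.955), high-only regions in 7.66% (OR 1.93, 1.44 to 2.57) and negative-only regions in 11.9% (OR 1.18, 0.917 to 1.52). The difference from constitutive regions was not kept with 1 mismatch (OR 0.877) or windows of 50 bp either side (OR 0.855), where the interval included 1. With 3 mismatches the interval against negative-only regions excluded 1 (OR 1.42, 1.19 to 1.70). Inside the listed interval a match was found in 9.32% (7.67 to 11.3%) of high/negative and 15.3% (14.3 to 16.4%) of constitutive regions. It was found there in 4.54% of high-only and 7.98% of negative-only regions. The single high/negative region with an exact match is the chromosome 14 region printed above. Another 31 regions had 1 mismatch and 107 had 2, while constitutive regions had 16, 134 and 555.

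Counting either element, 227 high/negative regions (22.5%, 20.0 to 25.2%) had a match, against 14.3% of high-only regions (OR 1.74, 1.39 to 2.19). The share was 24.9% of constitutive (OR 0.877, 0.745 to 1.03) and 20.3% of negative-only regions (OR 1.14, 0.925 to 1.40). Both elements were found in 36 high/negative regions (3.57%) and in 1.32% of high-only regions. The share with either element depended on width. In regions of 40 bp it was 17.9% for high/negative and 17.2% for constitutive regions (OR 1.05, 0.733 to 1.50), and in those of 60 to 80 bp it was 27.6% and 25.5% (OR 1.12, 0.872 to 1.43). In regions of 100 to 140 bp it was 23.8% and 28.2% (OR 0.796, 0.553 to 1.15). In the 104 high/negative regions over 140 bp it was 13.5% (8.19 to 21.3%), or 14 regions, against 25.3% of constitutive regions of that width (OR 0.460, 0.257 to 0.821). An interval that excluded 1 was thus found in the widest of the 4 classes alone, where it rests on those 14 regions.

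**Figure D2:**
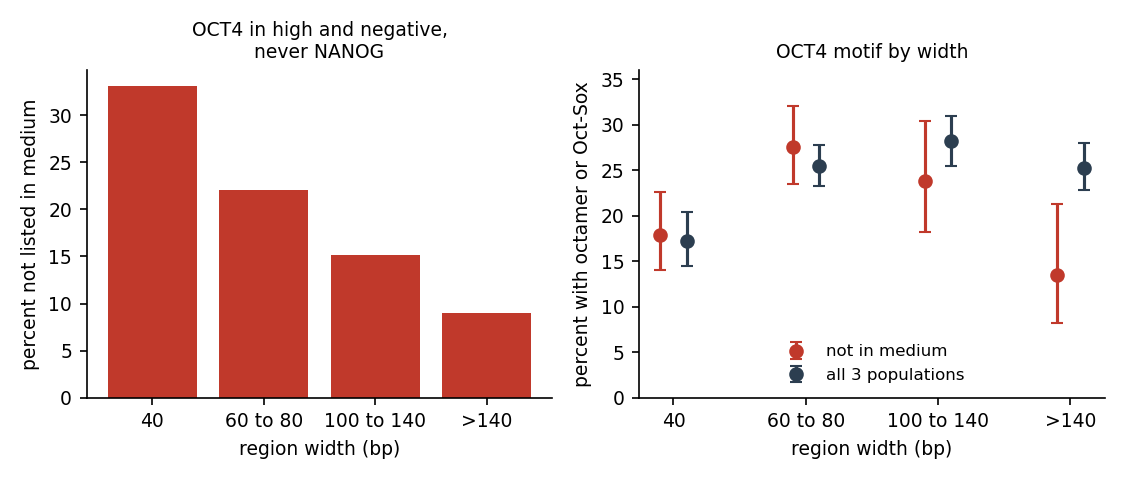
Left, percent of OCT4 regions in high and negative cells, never listed for NANOG, that were not listed in medium cells (vertical axis from 0), by region width in bp. Right, percent of regions with an octamer or Oct-Sox match by width, with 95% Wilson intervals. The absent share falls from 33.1% to 9.0%, and the motif share differs most in regions over 140 bp, 13.5% against 25.3%.

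The elements lay near the centre of the high/negative regions. Of the 124 regions with an octamer, 65 (52.4%, 43.7 to 61.0%) had it within 25 bp of the centre, with a median distance of 22.0 bp. Of the 139 with an Oct-Sox match, 94 (67.6%, 59.5 to 74.8%) had it within 25 bp, with a median of 15.0 bp. Constitutive regions had 50.7% and 62.1% within that distance, values inside the intervals of the high/negative regions.

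**Figure D3:**
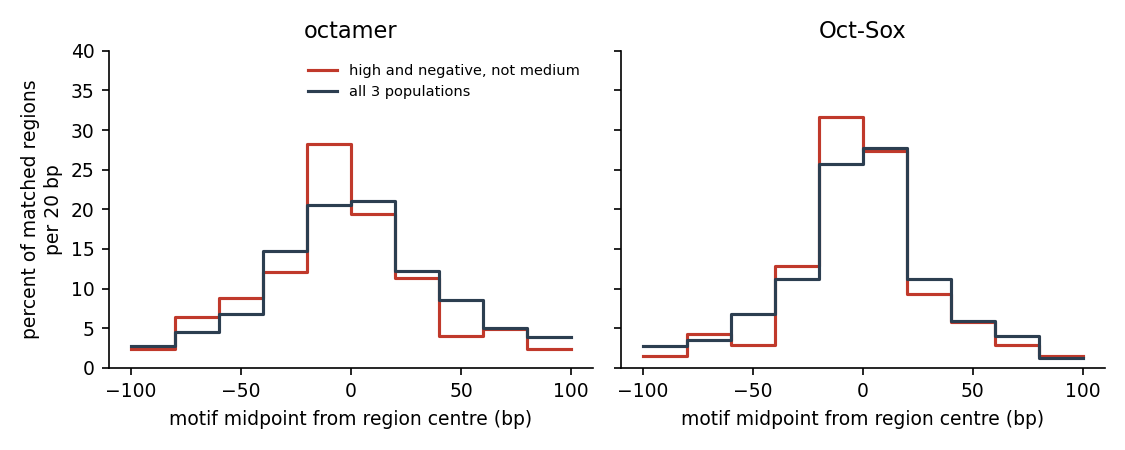
Distance of the motif midpoint from the region centre in bp (horizontal axis) for regions with an octamer (left) or Oct-Sox match (right), as percent of matched regions per 20 bp (vertical axis). Red lines are the high/negative regions and dark lines constitutive regions, and in all of them most matches lie near the centre, as for the 67.6% of Oct-Sox matches within 25 bp.

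The ESRRB element was scarce in high/negative regions. With up to 1 mismatch it was found in 45 (4.46%, 3.35 to 5.92%), against 7.18% of constitutive regions (OR 0.604, 0.438 to 0.832) and 10.9% of high-only regions (OR 0.383, 0.268 to 0.547). Negative-only regions held it in 4.21% (OR 1.06, 0.701 to 1.61). The share in high/negative regions was not above that of sequence 10 kb downstream, 7.14% (5.70 to 8.89%), or that of the reversed element, 5.35% (4.12 to 6.92%). The share of constitutive regions was also near that of their downstream windows, 6.67% (5.95 to 7.47%), while high-only regions exceeded theirs, 6.90% (5.52 to 8.59%). Inside the listed interval itself the element was found in 19 high/negative regions (1.88%), 5.58% of high-only, 4.03% of constitutive and 0.964% of negative-only regions. With no mismatch allowed, the interval against constitutive regions included 1 (OR 0.343, 0.0809 to 1.45).

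In the central windows a difference from negative-only regions was not shown for this element, although the high/negative regions were listed in high cells too. The high-only and high/negative regions were both listed in high cells and differed in OCT4-type and ESRRB elements in opposite directions. The ESRRB result held for each width class as a direction, with shares in high/negative and constitutive regions of 4.23% and 7.09% at 40 bp, 5.08% and 6.99% at 60 to 80 bp, 2.70% and 6.68% at 100 to 140 bp, and 5.77% and 7.98% in wider regions.

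Elements for 2 other families separated the classes less. GGGNGTGG, recognized by KLF factors such as the naive pluripotency factor KLF4, was found in 112 high/negative regions (11.1%, 9.31 to 13.2%), against 11.5% of constitutive regions (OR 0.959, 0.771 to 1.19). TAATCC, recognized by OTX2, a factor of the formative state, was found in 92 (9.12%, 7.49 to 11.1%), against 8.19% (OR 1.13, 0.884 to 1.43). High-only regions had 12.5% and 7.37%, and negative-only regions 13.1% and 8.15%, and for both elements every interval of the OR included 1. For KLF it excluded 1 against constitutive regions with 1 mismatch (OR 0.859), and against negative-only regions in wider windows (OR 0.812, 0.662 to 0.996). Windows 10 kb downstream of the high/negative regions held TAATCC in 8.23% (6.68 to 10.1%), and its reversed form was found in 7.83% of the regions. The share with TAATCC was thus near its background. For GGGNGTGG these backgrounds were 4.76% and 8.42% (6.86 to 10.3%).

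**Figure D4:**
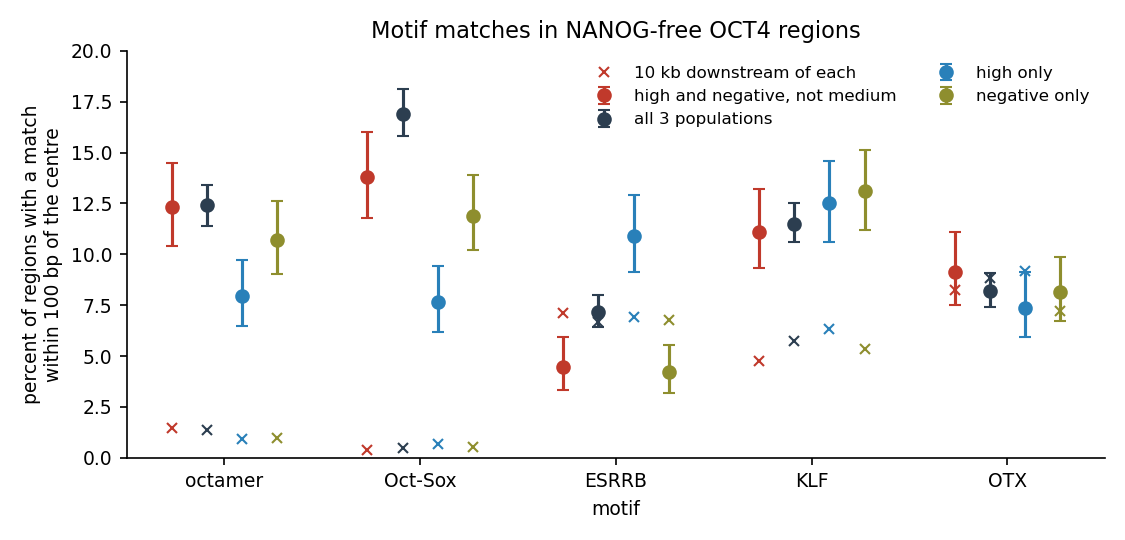
Percent of regions with a motif match within 100 bp of the centre (vertical axis) for 5 motifs and 4 classes of NANOG-free OCT4 regions, with 95% Wilson intervals. Crosses give the same scan 10 kb downstream. High/negative regions (red) lie above high-only regions for octamer and Oct-Sox, 13.8% against 7.66% for the latter, and below them for ESRRB, 4.46% against 10.9%.

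The surroundings of the high/negative regions were examined next, since the rule concerned the regions themselves and not their neighbors. The closest other OCT4 medium region was a median of 31.5 kb away (interquartile range 4.58 to 107 kb), and for 269 regions (26.7%) it was over 100 kb away. A neighbor in the OCT4 medium list lay within 1 kb of 156 high/negative regions (15.5%, 13.4 to 17.8%). Of these, 128 had it within 500 bp and 75 within 100 bp, and the smallest gap was 20 bp. Some high/negative regions were thus next to a region that was listed in medium cells, and the larger part had none nearby. Constitutive regions had such a neighbor in 14.4% of cases (OR 1.09, 0.898 to 1.32) high-only regions in 20.4% (OR 0.713, 0.568 to 0.894) and negative-only regions in 12.7% (OR 1.26, 0.984 to 1.60). Within 500 bp the interval against negative-only regions excluded 1 (OR 1.36, 1.04 to 1.78), as it did when stratified by width (OR 1.28). The 156 regions with a medium neighbor had an OCT4-type element in 21.8% of cases and the others in 22.6%. Joining intervals within 500 bp of each other, over all lists and with their listings combined, gave 862 high/negative regions. A region joined to one listed in medium cells or for NANOG thereby left the class, and regions joined to each other counted once. A high-only region joined to a negative-only region could enter it, so the 862 are not all among the original regions.

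A NANOG region of any population lay within 10 kb of 199 high/negative regions (19.7%, 17.4 to 22.3%). The share was 19.8% for constitutive regions (OR 0.993, 0.836 to 1.18), 26.6% for high-only (OR 0.679, 0.553 to 0.835) and 15.6% for negative-only regions (OR 1.33, 1.06 to 1.66). Within 50 kb the interval against negative-only regions included 1 (OR 1.12, 0.946 to 1.33). Within 1 kb it was 71 regions (7.04%), against 13.8% of high-only regions (OR 0.473, 0.351 to 0.637). Regions listed in high cells alone, though free of NANOG themselves, thus had a NANOG neighbor more often than the high/negative regions had. The high/negative regions were spread singly, with 40 (3.96%) within 10 kb of another.

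High/negative regions were mostly intergenic. By the position of the centre, 609 of the 1009 (60.4%, 57.3 to 63.3%) were intergenic, 367 (36.4%) intronic and 33 (3.27%) exonic. The intergenic share was 56.7% for constitutive (OR 1.16, 1.01 to 1.34) and 55.3% for high-only regions (OR 1.23, 1.03 to 1.47). Of negative-only regions, 685 of 1141 were intergenic (OR 1.01, 0.852 to 1.20). The centre was within 1 kb of a TSS in 98 (9.71%, 8.04 to 11.7%), against 11.8% of constitutive (OR 0.805, 0.641 to 1.01), 9.45% of high-only (OR 1.03, 0.769 to 1.38) and 12.4% of negative-only regions (OR 0.763, 0.581 to 1.00). The last interval excluded 1 on autosomes only (OR 0.749) or stratified by width (OR 0.755). The median distance to a TSS was 16.3 kb, and 14.3 kb for constitutive regions. At least 4 CpG dinucleotides within 100 bp of the centre were found in 289 high/negative regions (28.6%, 25.9 to 31.5%), against 32.3% of constitutive regions (OR 0.841, 0.723 to 0.978). The share was 25.2% for high-only (OR 1.19, 0.979 to 1.44) and 31.5% for negative-only regions (OR 0.874, 0.727 to 1.05). With a limit of 8 CpG the interval included 1 against constitutive regions (OR 0.844) and excluded it against negative-only regions (OR 0.705, 0.511 to 0.973). The median GC content was 47.3% in high/negative and 48.8% in constitutive regions.

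The high/negative regions near a TSS differed among themselves from the distal ones. Of the 98 near a TSS, 62 (63.3%, 53.4 to 72.1%) had at least 4 CpG, against 227 of 911 distal regions (24.9%, 22.2 to 27.8%). OCT4-type elements were found in 18 (18.4%, 11.9 to 27.2%) and 209 (22.9%) of these, and ESRRB elements in 1 and 44. Regions with an OCT4-type element had a median GC content of 45.8% and those without one 48.3%. KLF elements, which are rich in G, were found in 7.05% and 12.3%.

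The central 31 bases occurred more than once in the genome for 101 high/negative regions (10.0%, 8.31 to 12%), against 8.98% of constitutive regions (OR 1.13, 0.895 to 1.42). In 22 of them the 31 bases occurred more than 100 times, and 8 of these 22 were repeats of 1 to 4 bases. OCT4-type elements were found in 12.9% (7.68 to 20.8%) of the 101 and in 23.6% (20.9 to 26.4%) of the 908 others. The direction of the ESRRB and Oct-Sox differences against high-only regions was the same in regions with a unique centre, with OR of 0.383 and 1.91.

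**Figure D5:**
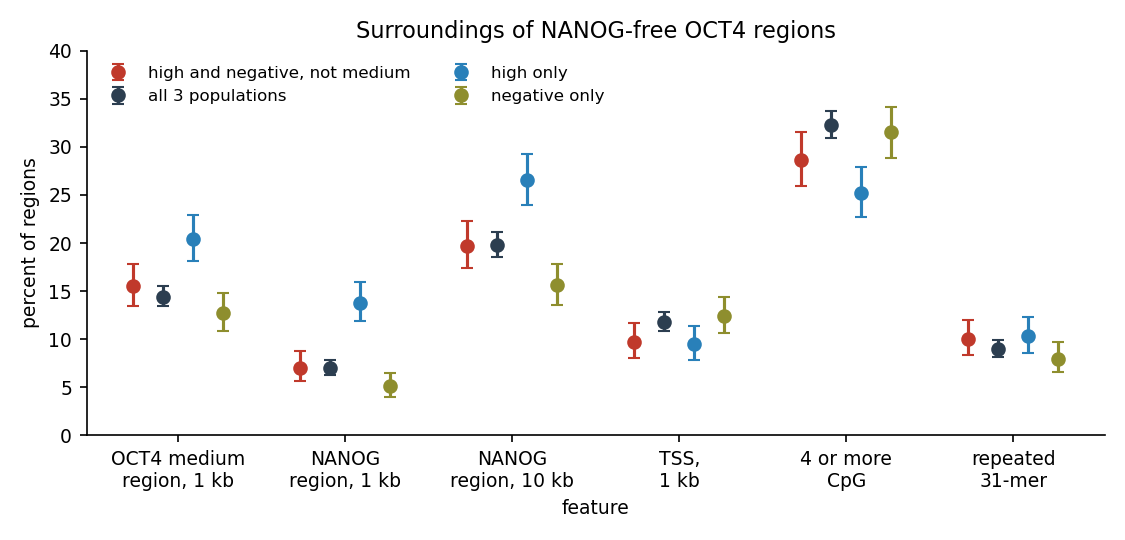
Percent of regions (vertical axis) with each of 6 surrounding or sequence features in 4 classes of NANOG-free OCT4 regions, with 95% Wilson intervals. The high/negative regions (red) lie near constitutive regions for NANOG neighbors within 10 kb, 19.7% and 19.8%, and below high-only regions, 26.6%.

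In all, 30 OR were computed over 10 features fixed for the comparison and 3 classes, of which 9 had an interval that excluded 1, and 60 with further features, of which 16 did. They were not adjusted for their number.

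Genes near high/negative regions were counted on 4 lists and beside all protein-coding genes. Of 22380 protein-coding genes, 843 (3.77%) had a high/negative region within 20 kb. It was 1 of 17 naive pluripotency genes (5.88%), 1 of 12 genes shared by pluripotent states (8.33%), 1 of 14 formative and primed genes (7.14%) and 3 of 19 germ layer genes (15.8%). Each count rests on 1 to 3 genes. In the same order, 4, 4, 1 and 5 genes were near a constitutive region (15.1% of all protein-coding genes), 3, 1, 0 and 0 near a high-only region (4.22%) and 2, 1, 2 and 4 near a negative-only region (4.29%).

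Among naive genes it was *Tet2* (ENSMUSG00000040943), which encodes a dioxygenase that oxidizes 5-methylcytosine. Its region, chr3:133137592-133137631, was 40 bp wide and intronic, 50200 bp from the closest OCT4 medium region and 44060 bp from the closest NANOG region. Among shared genes it was *Lin28a* (ENSMUSG00000050966), which encodes an RNA-binding protein that blocks the maturation of let-7. Its region, chr4:133574872-133575211, was 340 bp wide, 116 bp upstream of the gene, in an intron of another annotated transcript, and 1880 bp from an OCT4 medium and a NANOG region.

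Among formative and primed genes it was *Sox3* (ENSMUSG00000045179), a SOX gene of neural progenitors, whose region at chrX:58140992-58141051 was 115040 bp from any OCT4 medium region. The germ layer genes described here were *Pax6* and *Meis1*. The region of *Pax6* (ENSMUSG00000027168), a regulator of eye and neural development, at chr2:105514572-105514691 overlapped an exon, held 8 CpG and was 860 bp from an OCT4 medium region. That of *Meis1* (ENSMUSG00000020160) was in an intron at chr11:18846172-18846271. None of these 5 regions held an octamer or an Oct-Sox match in the central window.

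Genes with 3 high/negative regions within 20 kb were *Hoxc9* and *Hoxc10*, *A930003A15Rik*, *Cd96* and *Macrod2*. *Hoxc9* (ENSMUSG00000036139) and *Hoxc10* (ENSMUSG00000022484), posterior Hox genes, shared the same 3 regions, at chr15:102790632-102790691, chr15:102804112-102804171 and chr15:102815032-102815071, the last in an exon of *Hoxc9*. *Cd96* (ENSMUSG00000022657), which encodes an immunoglobulin-family receptor of lymphocytes, had 3 intronic regions, of which chr16:46102012-46102091 held an octamer and an Oct-Sox match with 1 mismatch. *Macrod2* (ENSMUSG00000068205), a very long gene for an ADP-ribose hydrolase, had 3 intronic regions without either element. The regions of *A930003A15Rik* (ENSMUSG00000075330) were intergenic and also without either element.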

How the data were processed

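OCT4 and NANOG ChIP-Seq was examined in 3 sorted populations of E-GFPd1 ESCs, with 1 library per factor and population (6 libraries), grouped by the antibody and sorted fraction in the labels. The deposited files are lists of intervals with no score, count or signal, given as positions by the authors. The submitters' processing notes name Bowtie and mm9. In GeneProf, the authors used SISSRs for peak calling and joined peaks that overlapped across datasets. A region left the list of a population once its signal, normalized for depth, was below 50% of the highest. Depth is unknown, since no read numbers are given.

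The high/negative regions, the comparison classes and the gene lists were chosen with earlier results of these data known. Intervals were matched exactly. All interval widths are multiples of 20 bp, and no intervals overlapped. Genes, TSS and exons came from GENCODE on NCBIM37 (37310 genes, of which 22380 protein-coding). A gene was near a region within 20 kb of its body. The central window, 100 bp to each side of the midpoint, was scanned for motifs on either strand. Background came from the reversed motif and from windows 10 kb downstream. The 31 central bases were counted in the whole genome on both strands. Shares have 95% Wilson intervals and OR 95% intervals. Both describe regions, which are not replicates, and no p-value was computed.

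Named genes were all list genes with a region within 20 kb, of which 1 is not reported here, and all protein-coding genes with 3 or more. Printed sequences were those with the fewest Oct-Sox mismatches, then the widest, the widest with an exact octamer, and 3 list genes without a match. Alternatives were other overlaps, widths, windows, mismatch limits, distances, autosomes only, and stratification by width or GC. Restriction to a unique 31-mer and the 4 width classes were later additions, chosen with the data in view. Python 3.11.15, numpy 2.4.6, pandas 2.3.3, scipy 1.17.1, pysam 0.24.0, numba 0.67.0 and matplotlib 3.10.9 were used. On simulated data with known answers, 11 of 11 were recovered.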

Additional observations from a re-analysis of the deposited data

How the results depend on the processing

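No paired analysis was possible because each factor and population has 1 library. Of 188 alternative values, 165 kept the side of 1 on which the interval lay, still included 1, or stayed within 1.5 times the main count. None changed direction past an interval. The number so kept was 60 of 60 against high-only, 53 of 60 against constitutive and 48 of 60 against negative-only regions. Against constitutive regions, the OR of Oct-Sox no longer excluded 1 with windows of 50 bp (0.855) or 1 mismatch (0.877), that of ESRRB with 0 mismatches (0.343) and that of CpG with a limit of 8 (0.844). The interval came to exclude 1 for TSS within 5 kb (0.844) or on autosomes only (0.782) and for KLF with 1 mismatch (0.859). Of the 12 changes against negative-only regions, the NANOG neighbor within 50 kb ceased to exclude 1, and the others came to exclude it, for OCT4 medium neighbors, TSS, CpG, octamer, Oct-Sox and KLF. The number of high/negative regions was 289 with lists limited to their median width and 983 on autosomes. It was 862 after merging intervals of all lists within 500 bp. The share of protein-coding genes with a region was 2.30% within 5 kb, 6.55% within 50 kb and 2.72% for the closest gene only. These distances define the share, and for the other changes the cause was not tested. Without signal values, the margin by which a region passed or missed the authors' threshold is unknown.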

Other observations

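Of the NANOG-free OCT4 regions on chromosome X, 26 of 238 (10.9%, 95% Wilson interval 7.56 to 15.5%) were high/negative regions. Over all chromosomes it was 1009 of 14092. For a position on chromosome X, every interval of the OR included 1. The OR was 1.44 (0.919 to 2.27) against constitutive, 1.37 (0.761 to 2.47) against high-only and 1.65 (0.899 to 3.03) against negative-only regions. On autosomes the share ranged from 5.42% on chromosome 9 to 9.50% on chromosome 14, whose interval (7.06 to 12.7%) overlapped that of chromosome X. No high/negative region was on chromosome Y.

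The Hox genes, transcription factors that pattern the body axis, were chosen after their values had been seen. A high/negative region lay within 20 kb of 12 of 39 (30.8%), a constitutive region near 30, a high-only region near 11 and a negative-only region near 30. Over all protein-coding genes the shares were 3.77%, 15.1%, 4.22% and 4.29% in that order. These genes are close together, and the counts rest on 6 distinct high/negative regions (0.595% of 1009), 15 constitutive (0.360%), 3 high-only (0.284%) and 15 negative-only regions (1.31%). The 6 high/negative regions were spread over all 4 Hox clusters.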
